A study of Mus musculus with 54 samples.

Results

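Integrins and the adhesion molecules they bind were followed in macrophages sorted from the mouse brain. The 10 genes were chosen by symbol, as Itga4, Itga5, Itga6, Itgal, Itgam, Itgb1, Itgb2, Itgb5, Icam1 and Pecam1, and all 10 were found among the 33280 gene symbols of the count tables. The 54 bulk RNA-seq libraries form 18 groups of 3, each library from 1 mouse, with 24 libraries of microglia (MG) and 30 of subdural CAMs (sdCAMs), CNS-associated macrophages that line the leptomeninges and the vessels. Both populations came from brains without choroid plexuses. In WT mice and in mice labelled Ccr2 KO (Ccr2-/- below), the groups were untreated mice injected with PBS (resting below), mice given vehicle (CTL) and then LPS, and mice given BLZ945 and then LPS. BLZ945 inhibits the CSF1 receptor, which depletes these macrophages, and the cells then repopulate the brain over the 8 weeks between the end of treatment and the injection. LPS is bacterial endotoxin, and cells were sorted 12 h after it. In reporter mice, labelled Ccr2CreERT2/CreERT2:R26tdT/tdT, all groups received BLZ945 and tamoxifen and then PBS or LPS, and sdCAMs were sorted as tdT+ or tdT-, where tdT+ marks cells descended from cells in which the Ccr2 gene drove Cre at the time of tamoxifen. The reporter carries CreERT2 at both Ccr2 alleles, had no group without BLZ945 and formed the second labelled batch, so its values were not tested against those of the other mice. Because the PBS mice of the WT and Ccr2-/- series had no vehicle, an LPS difference there holds the vehicle too, and the 2 cannot be told apart.

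Integrins are pairs of an alpha and a beta subunit that bind matrix proteins or counter-receptors on other cells and are switched on from inside the cell by talin and kindlin. Itgb1 pairs with Itga4, Itga5 and Itga6 to bind VCAM-1 or fibronectin, fibronectin, and laminin, respectively. Itgb2 pairs with Itgal to form LFA-1 and with Itgam to form Mac-1 (CD11b/CD18), both of which bind ICAM-1, the product of Icam1. Itgb5 pairs with the alpha-v subunit, and Pecam1 encodes CD31, a homophilic adhesion molecule of endothelium, platelets and leukocytes. CD11b protein is one of the markers by which brain myeloid cells are gated in this study, so the presence of Itgam in sorted cells is not a finding.

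Promoter sequence was shown for the 5 members with an entry that passed in 2 or more of the LPS comparisons below, to set their proximal DNA beside those changes. RefSeq promoter entries on GRCm38.p6 matched 6 of the 10 members (Itga4, Itga5, Itgam, Itgb1, Itgb5 and Icam1). The stretches run from base -170 to base -51 relative to the annotated start, 5′ to 3′ on the strand of the gene. They are chr9:21015770-21015889 (plus strand) for Icam1, chr7:128062470-128062589 (plus) for Itgam, chr15:103366842-103366961 (minus) for Itga5, chr2:79255256-79255375 (plus) for Itga4 and chr16:33829495-33829614 (plus) for Itgb5. Capitals mark GGAAATTCC, a kappaB-type site, or GAGGAA, the purine core bound by PU.1 and other ETS factors, on either strand.
Icam1: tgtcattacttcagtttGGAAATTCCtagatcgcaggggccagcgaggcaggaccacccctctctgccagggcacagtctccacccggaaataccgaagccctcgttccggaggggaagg
Itgam: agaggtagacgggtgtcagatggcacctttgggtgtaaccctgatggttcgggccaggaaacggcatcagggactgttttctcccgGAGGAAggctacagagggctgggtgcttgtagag
Itga5: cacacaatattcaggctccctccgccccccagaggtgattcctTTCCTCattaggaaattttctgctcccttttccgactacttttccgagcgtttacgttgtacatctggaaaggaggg
Itga4: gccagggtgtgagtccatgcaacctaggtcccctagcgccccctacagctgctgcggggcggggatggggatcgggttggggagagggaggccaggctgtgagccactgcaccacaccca
Itgb5: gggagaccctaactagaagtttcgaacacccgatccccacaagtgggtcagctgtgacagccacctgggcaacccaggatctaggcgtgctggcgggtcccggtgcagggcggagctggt
In the 250 bases before the start, GGAAATTCC was found in Icam1, beginning at -153, and in none of the other 5 matched members. It was present in 0.286% of all 32851 promoters of that length. GAGGAA was found in Itgam (from -84 and from -15), Itga5 (from -127) and Itgb1 (from -9), and in 23.3% of all promoters. The 2 motifs did not overlap in these sequences. These matches describe letters in the DNA and are not measurements of binding.

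A difference is said to pass when the adjusted p of edgeR's quasi-likelihood test, adjusted by Benjamini-Hochberg over all genes tested, was under 0.05, and a call is said to be lost where it misses that without 1 library or under another setting. Library totals ran from 1705930 to 11330781 counts. They were lowest in WT sdCAMs (1705930 to 7699790) and in the reporter sdCAMs (2060240 to 9850283), so low transcripts are less certain there. Summed microglia markers were 7179 to 42152 CPM in MG and summed sdCAM markers 0.199 to 22.3 CPM there, against 502 to 20757 CPM of sdCAM markers in sdCAMs. The titles of 12 Ccr2-/- libraries taken after LPS name the other population than their cell-type label, and their markers go with that label, which was used. Microglia markers were also found in sdCAMs, at a median of 2153 CPM and between 345 and 9880 CPM. The 2 highest were WT sdCAMs of mouse 15 after PBS, at 9880 CPM against 4551 and 5941 CPM in the other 2 libraries of that group, and the tdT+ library of mouse 5 taken after LPS. The WT library also held 6451 CPM of sdCAM markers. The tdT+ library held 9661 CPM of microglia markers, against 603 and 698 CPM in the other 2 libraries of that group and 11066 to 15142 CPM in MG from those mice. It held 502 CPM of sdCAM markers. After LPS, the column for mouse 1 tdT- cells and the column for mouse 7 tdT+ cells carry each other's index number in the labels. As named, 2 of 24 mice had libraries that disagreed in sex-linked transcripts, and none did once those 2 columns were exchanged. The member calls that rest on them in the LPS and tdT comparisons are therefore given both ways. Levels, sizes of differences and genes of the lists are for the columns as named unless stated. Of the WT sdCAM libraries, 6 carry a mark for correction of immediate early genes in their labels. In bulk samples, fewer expressing cells and less RNA per cell cannot be told apart.

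Expressed per kilobase of exon (CPM per kb), which is the scale on which genes can be compared, Itgb5 was the highest member in MG of untreated mice, at 656 in WT and 728 in Ccr2-/- mice. Itgb2 followed at 186 and 231, then Itgb1 at 119 and 145, Itgam at 91.2 and 103, and Itga6 at 50.0 and 54.4. Icam1 stood at 32.8 and 43.6, Itga5 at 7.75 and 6.38, and Pecam1 at 4.87 and 7.97 CPM per kb. The 3 beta subunits and Itgam made up the upper part of the order, and Itga4 and Itgal were near 0 in resting MG. In sdCAMs of untreated mice the 3 beta subunits again led, with Itgb5 at 148 in WT and 202 in Ccr2-/- mice, whereas after LPS Itgam led at 178 and 213 CPM per kb. All other levels below are TMM-scaled CPM of one gene, listed by mouse, as the plot of levels in every library shows.

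**Figure D1:**
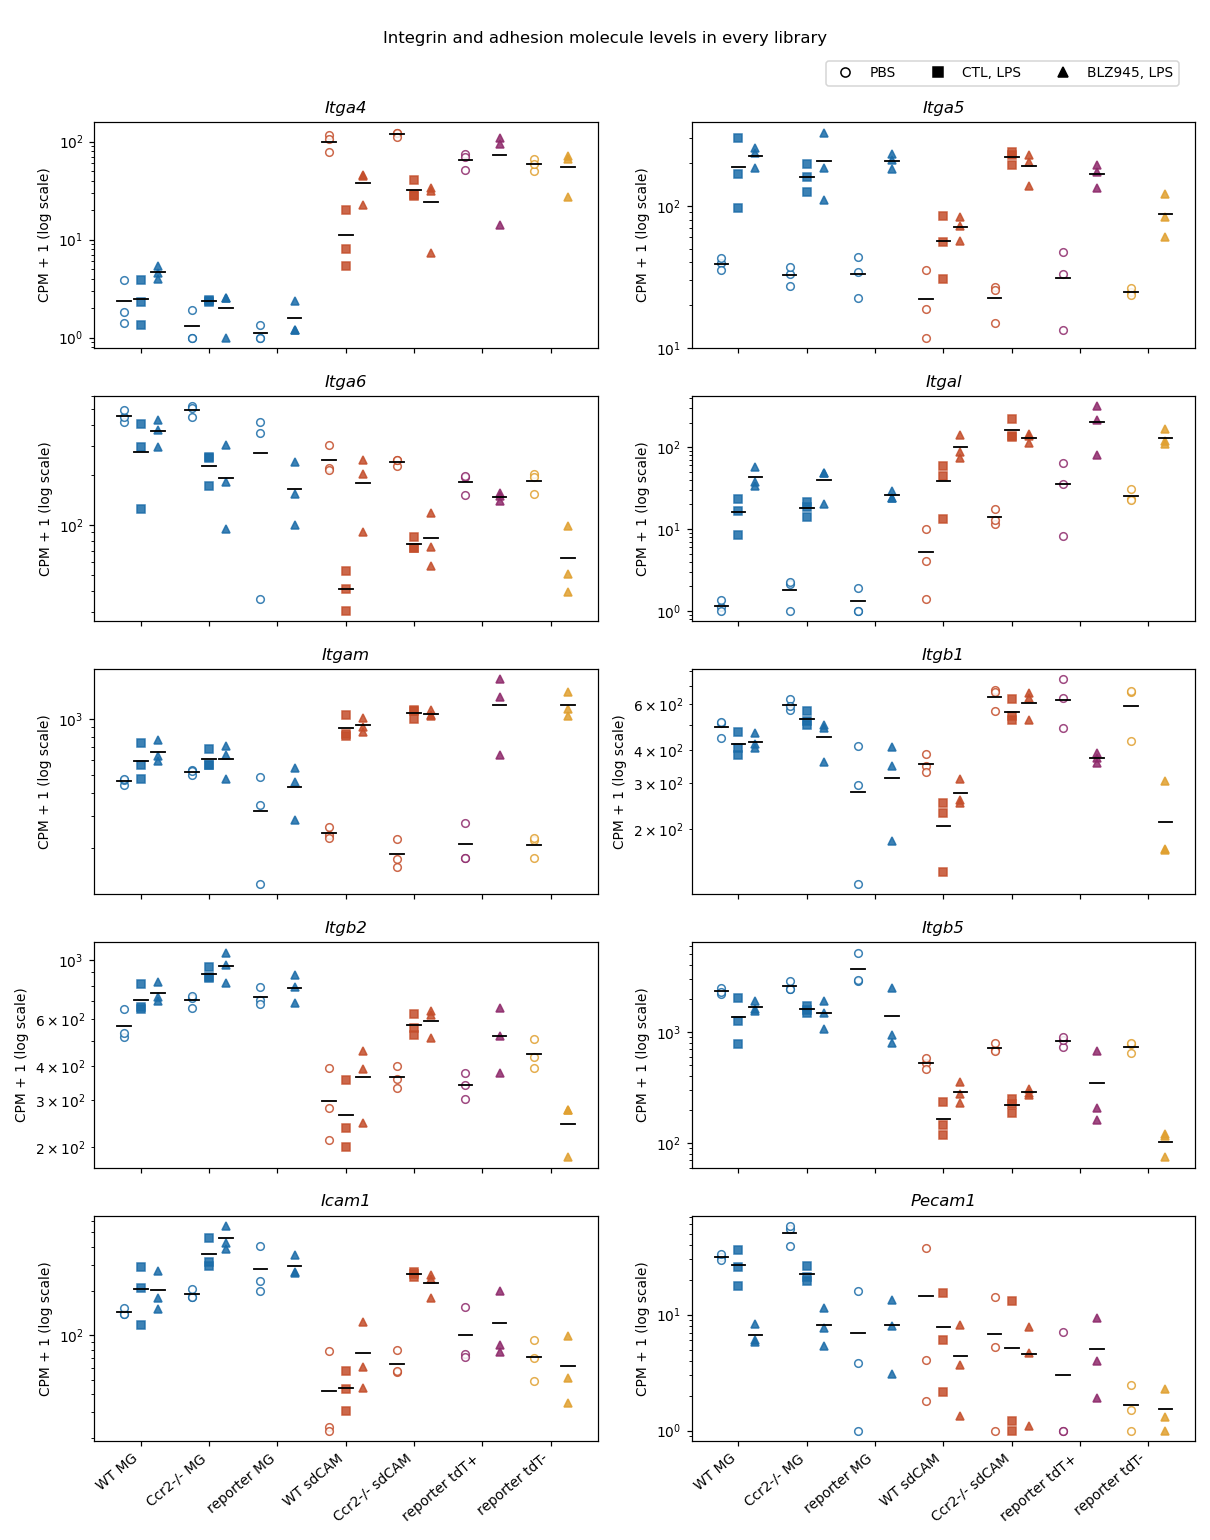
Levels of the 10 members in all 54 libraries as CPM + 1 on a log axis, by population and genotype, with each point 1 mouse and the bar the group mean of 3. Open circles are PBS, squares CTL and LPS, triangles BLZ945 and LPS (reporter groups all received BLZ945). Itga4 and Itgal sit near 1 in MG of PBS mice, and Itgam rises after LPS in each of the 4 sdCAM sets.

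The first comparison asked which members separate sdCAMs from MG of the same mice. Itga4 was a transcript of sdCAMs. Its levels in untreated Ccr2-/- mice were 122, 122 and 109.9 CPM in sdCAMs against 0.913, 0 and 0 CPM in MG, where those MG values rest on 9, 0 and 0 reads. In untreated WT mice they were 115, 76.9 and 104 against 2.83, 0.417 and 0.822 CPM. All sdCAM libraries lay far above all MG libraries, with a log2 difference of 8.56 (SE 0.881, adjusted p = 5.26e-07) in Ccr2-/- mice and 6.25 (SE 0.797, adjusted p = 5.19e-05) in WT mice. Because the MG levels rest on a few reads, the size of these differences is not well bounded. After BLZ945 and PBS, repopulated sdCAMs of the reporter held 74.1, 68.4 and 49.8 CPM in tdT+ and 48.9, 65.4 and 58 CPM in tdT- cells, against 0.337, 0 and 0 CPM in MG. Both differences passed (8.83, adjusted p = 3.39e-05 for tdT+ and 8.67, adjusted p = 4.2e-05 for tdT-).

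Itgal showed the same order at a lower level. Untreated Ccr2-/- sdCAMs held 10.4, 11.9 and 16.5 CPM and their MG 1.12, 0 and 1.23 CPM (log2 difference 4.10, SE 0.55, adjusted p = 1.42e-05). In untreated WT mice the sdCAM values of 3.05, 0.398 and 9.09 CPM come from 8, 1 and 21 reads and the MG values from 1, 0 and 4 reads (log2 difference 4.52, SE 0.974, adjusted p = 0.00473). Repopulated reporter sdCAMs held 34.8, 7.20 and 62.7 CPM in tdT+ cells and 30.2, 22 and 21.7 CPM in tdT- cells, all above the highest MG library at 0.926 CPM (6.63, adjusted p = 0.000191; 6.13, adjusted p = 0.00039). Summed lymphocyte markers, which include no integrin, were at most 27.9 CPM in any sdCAM library, highest in the reporter after PBS, and their part in the Itgal level was not tested.

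Itgb5 and Icam1 went the other way. Itgb5 was 2427, 2905 and 2431 CPM in MG of untreated Ccr2-/- mice and 684, 672 and 797 CPM in their sdCAMs (log2 difference -1.85, SE 0.176, adjusted p = 1.97e-07). In WT mice it was 2469, 2211 and 2317 CPM in MG and 525, 467 and 587 CPM in sdCAMs (log2 difference -2.08, SE 0.378, adjusted p = 0.00139). It was lower in sdCAMs in all 6 comparisons made, with log2 differences of -2.90 to -1.85, and the sets of libraries never overlapped. For the tdT+ comparison (-2.18, adjusted p = 0.0104) the call was lost at adjusted p = 0.0558 without the library of tdT+ PBS mouse 174. Icam1 was 182, 182 and 206 CPM in Ccr2-/- MG and 78.1, 55.7 and 56 CPM in sdCAMs (log2 difference -1.59, SE 0.198, adjusted p = 5.87e-06), and 139, 138 and 152 and 22.8, 21.5 and 77.4 CPM in WT mice (log2 difference -1.78, SE 0.497, adjusted p = 0.0209). The WT call was lost at adjusted p 0.0529 to 0.0898 without any 1 of sdCAM PBS mouse 9, MG PBS mouse 9, sdCAM PBS mouse 14, MG PBS mouse 14 or MG PBS mouse 15. In the reporter Icam1 passed for tdT- cells (-2.03, adjusted p = 0.0127; adjusted p 0.058 to 0.0837 without either tdT- PBS mouse 175 or tdT- PBS mouse 177) and missed for tdT+ cells (-1.52, adjusted p = 0.0517), where it passed with the mouse as a replicate block (log2 difference -1.61, adjusted p = 0.045) and at adjusted p = 0.0411 without the library of tdT+ PBS mouse 174. For tdT+ cells Icam1 also passed with DESeq2, with size factors, with totals only and without a filter.

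The leukocyte subunits Itgam and Itgb2 were also lower in resting sdCAMs. In untreated Ccr2-/- mice Itgam was 175, 157 and 224 CPM in sdCAMs and 532, 497 and 523 CPM in MG (log2 difference -1.48, SE 0.16, adjusted p = 9.43e-07), and Itgb2 was 330.1, 359 and 401 and 720.5, 733 and 664 CPM (log2 difference -0.96, SE 0.134, adjusted p = 2.21e-05). The corresponding WT differences had the same sign and missed the threshold in edgeR, at -0.86, adjusted p = 0.0566 for Itgam and -0.88, adjusted p = 0.0691 for Itgb2 (the latter reached adjusted p = 0.0357 without the library of sdCAM PBS mouse 15). DESeq2 passed both WT differences. Itga6 was lower in Ccr2-/- sdCAMs at 239 ± 12.3 against 491 ± 39.2 CPM (SD, n = 3; log2 difference -1.04, SE 0.304, adjusted p = 0.0179; adjusted p 0.0548 to 0.0616 without either sdCAM PBS mouse 1m or MG PBS mouse 3m). Itgb1 did not pass in any comparison without LPS, with log2 difference 0.09, 95% interval -0.21 to 0.39, adjusted p = 0.719 in Ccr2-/- mice. Itga5 did not pass there either. In the reporter, Itgb2 passed for tdT+ cells (-1.13, adjusted p = 0.0256), although it was lost at adjusted p 0.0549 to 0.127 without any 1 of the 6 libraries. One reporter MG library after PBS, that of mouse 175, stood apart for several members, with Itga6 at 34.7 CPM against 358 and 417 CPM, Itgam at 128 CPM against 342 and 484 CPM, and Itgb5 at 5208 CPM against 2893 and 2918 CPM.

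Pecam1 was higher in MG than in sdCAMs in each set of means but passed in none of the 6 comparisons. In untreated Ccr2-/- mice it was 53.3, 57.3 and 38.3 CPM in MG and 4.26, 0 and 13.1 CPM in sdCAMs (log2 difference -3.10, 95% interval -5.67 to -0.54, adjusted p = 0.0786; adjusted p = 0.0424 without the library of sdCAM PBS mouse 5f). WT sdCAMs of mouse 15, the library with the most microglia markers (9880 CPM), held 36.3 CPM of Pecam1 against 3.05 and 0.797 CPM in mice 9 and 14, and the WT comparison (-1.18, adjusted p = 0.424) passed without that library (adjusted p = 0.0153 without the library of sdCAM PBS mouse 15). Summed endothelial markers were 5.48 to 20.3 CPM in those Ccr2-/- MG and 8.76 to 15.7 CPM in WT MG, and summed platelet markers 31.1 to 42.3 and 13 to 13.6 CPM. In both sets the platelet sum was carried by Gp9, with the other 4 platelet markers at or under the floor of 3 reads in every library. The endothelial markers Ly6c1 and Slco1a4 were at or under it too. Whether cells of those types, or microglia in the library of mouse 15, contributed Pecam1 was not tested.

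Counted over the members, 7 of 10 passed in untreated Ccr2-/- mice (2 higher and 5 lower in sdCAMs), where 22.4% of all genes tested passed. In untreated WT mice 4 of 10 passed (2 and 2), against 17.4% of all genes. In the reporter after PBS 4 of 10 passed for tdT+ and 4 of 10 for tdT- cells (2 and 2 in each), against 8.53% and 6.38%. The median absolute log2 difference of the members was 1.54 in untreated Ccr2-/- mice and 0.55 over all genes tested, and in WT mice 1.03 and 0.92.

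After LPS the separation of the populations changed in part. In Ccr2-/- mice 6 of 10 members passed, 3 higher and 3 lower in sdCAMs, against 27.0% of all genes tested. Itga4 and Itgal stayed higher in sdCAMs (log2 difference 4.50, SE 0.701, adjusted p = 6.98e-05; log2 difference 3.25, SE 0.425, adjusted p = 9.21e-06). Itgam, lower in resting sdCAMs, was now higher in them (log2 difference 0.82, SE 0.157, adjusted p = 0.000572). Itga6, Itgb2 and Itgb5 were lower (-1.59, adjusted p = 0.000703; -0.64, adjusted p = 0.00114; -2.87, adjusted p = 1.06e-09). Icam1 did not pass (log2 difference -0.47, 95% interval -0.87 to -0.06, adjusted p = 0.0809; adjusted p = 0.0384 without the library of MG LPS mouse V2m).

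In WT mice after LPS 7 of 10 members passed, against 36.7% of all genes tested. Itga4 was higher in sdCAMs (log2 difference 2.98, SE 0.713, adjusted p = 0.00399), which fell short when libraries were scaled by totals only (log2 difference 1.09, adjusted p = 0.223). Itga6, Itgb2, Itgb5 and Icam1 were lower (-2.59, adjusted p = 0.000402; -1.29, adjusted p = 0.00613; -2.90, adjusted p = 9.98e-05; -2.13, adjusted p = 0.00368). Itga5 was lower too (-1.63, adjusted p = 0.00974; adjusted p = 0.0761 without the library of MG LPS mouse 1). Itgb1 was lower (-0.89, adjusted p = 0.0256) but not with the mouse as a replicate block (log2 difference -0.92, adjusted p = 0.0656) and not at adjusted p 0.0519 to 0.103 without any 1 of MG LPS mouse 1, sdCAM LPS mouse 6 or MG LPS mouse 6. Itgal missed (1.5, adjusted p = 0.0904) and passed with the replicate block (log2 difference 1.37, adjusted p = 0.0254) and at adjusted p = 0.045 without the library of sdCAM LPS mouse 4. Itgam had log2 difference 0.74, 95% interval 0.11 to 1.37, adjusted p = 0.0615, passed with size factors (log2 difference 1.00, adjusted p = 0.0158) and lay below 0 with totals only (log2 difference -1.07, adjusted p = 0.0507). DESeq2 passed both Itgal and Itgam here, and edgeR without a filter passed Itgal. Neutrophil markers differed between these WT sets, at 341 to 3084 CPM summed in sdCAMs and 2.83 to 17.9 CPM in MG, carried in sdCAMs by S100a8 and S100a9, and their part was not tested.

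**Figure D2:**
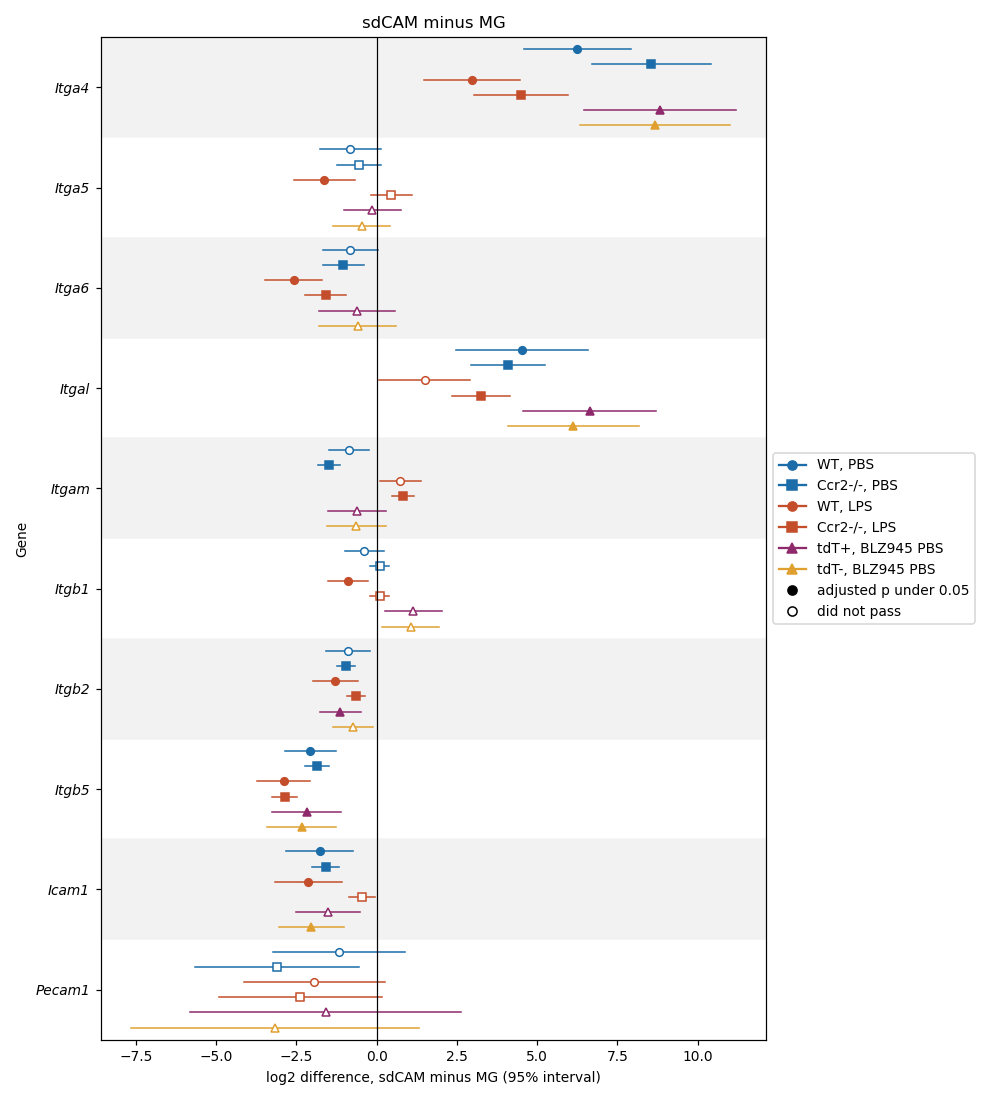
log2 difference of sdCAMs minus MG for the 10 members in 6 comparisons, with 95% intervals and filled points for an adjusted p under 0.05. Itga4 lies to the right of 0 and Itgb5 to the left in all 6, and Itgam lies left of 0 without LPS and right of 0 after LPS in WT and Ccr2-/- mice (in WT mice only with TMM or size factors, not with totals only).

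The LPS comparison asked how each population changed 12 h after the injection. Itgal and Itga5 were the members that rose most widely. Itgal in WT MG went from 0.109, 0 and 0.365 CPM (1, 0 and 4 reads) to 22.2, 7.39 and 15.7 CPM (log2 difference 6.43, SE 0.653, adjusted p = 3.27e-05). Ccr2-/- MG went from 1.12, 0 and 1.23 to 20.6, 12.9 and 17.4 CPM (log2 difference 4.52, SE 0.606, adjusted p = 6.34e-05). Resting MG thus held few or no Itgal reads and all 6 MG libraries after LPS held at least 81, and the fold sizes are loosely bounded for that reason. In repopulated reporter MG the values were 0.926, 0 and 0 and 23.2, 23 and 28.1 CPM without overlap, and the test did not pass (log2 difference 6.22, 95% interval 2.36 to 10.08, adjusted p = 0.122; adjusted p = 0.0428 without the library of MG PBS mouse 175).

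In sdCAMs, Itgal rose in all 4 sets, and it started from a measurable level in the Ccr2-/- and reporter sets. In resting WT sdCAMs Itgal was at or under 3 reads in 1 of the 3 libraries, so its fold size there is loosely bounded. In Ccr2-/- mice it went from 10.4, 11.9 and 16.5 to 217, 131 and 137 CPM, which is 12.6-fold (log2 difference 3.65, SE 0.275, adjusted p = 1.03e-06). In WT mice it reached 43.9, 12.2 and 57.1 CPM (log2 difference 3.44, SE 0.848, adjusted p = 0.039), and this call was lost when libraries were scaled by totals only (log2 difference 1.89, adjusted p = 0.0966) and at adjusted p 0.0892 to 0.122 without any 1 of sdCAM LPS mouse 1, sdCAM LPS mouse 6, sdCAM PBS mouse 9 or sdCAM PBS mouse 14. In the reporter it reached 215, 78.6 and 318 CPM in tdT+ cells (log2 difference 2.59, SE 0.618, adjusted p = 0.0117) and 164, 116 and 108 CPM in tdT- cells (log2 difference 2.47, SE 0.617, adjusted p = 0.00756). The tdT+ call was lost with the 2 columns exchanged (log2 difference 2.18, adjusted p = 0.057), with both left out (log2 difference 2.11, adjusted p = 0.0677) and at adjusted p = 0.0626 without the library of tdT+ LPS mouse 7.

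Itga5, the alpha subunit of the fibronectin receptor, rose in 6 of 7 sets. WT MG went from 38.6, 34.3 and 41.8 to 302, 95.5 and 168 CPM (log2 difference 2.33, SE 0.331, adjusted p = 0.000368) and Ccr2-/- MG from 32.1, 26.1 and 36.2 to 158, 124 and 196 CPM (log2 difference 2.37, SE 0.32, adjusted p = 6.62e-05). Repopulated reporter MG went from 21.5, 33.1 and 42.3 to 179.6, 209.5 and 231 CPM (log2 difference 2.64, SE 0.397, adjusted p = 0.0367), a call lost at adjusted p 0.0904 to 0.237 without any 1 of MG LPS mouse 1, MG LPS mouse 5, MG LPS mouse 7, MG PBS mouse 174 or MG PBS mouse 177. The groups did not overlap in any MG set.

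Among sdCAMs, Itga5 in Ccr2-/- mice went from 25.6, 24.7 and 13.9 to 193, 226 and 237 CPM, 10.2-fold (log2 difference 3.35, SE 0.269, adjusted p = 1.58e-06). Reporter tdT+ cells went from 46, 12.3 and 31.9 to 132, 193 and 174 CPM (log2 difference 2.50, SE 0.44, adjusted p = 0.00174) and tdT- cells from 23.6, 25.5 and 22.4 to 59.6, 83.1 and 119 CPM (log2 difference 1.95, SE 0.433, adjusted p = 0.00356), the latter lost with totals only (log2 difference 1.18, adjusted p = 0.0518). WT sdCAMs had 17.9, 10.8 and 34.2 and 83.2, 54.2 and 29.7 CPM with overlapping groups, and the test did not pass (log2 difference 1.61, 95% interval 0.46 to 2.76, adjusted p = 0.0871). Itga5 passed there with the immediate early gene mark as a covariate (log2 difference 1.94, adjusted p = 0.036) and with DESeq2.

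Itgam rose in sdCAMs and passed in no MG set. Ccr2-/- sdCAMs went from 175, 157 and 224 to 1112, 994 and 1100.3 CPM, 5.78-fold (log2 difference 2.53, SE 0.156, adjusted p = 1.99e-07). Reporter tdT+ cells went from 177, 274 and 177 to 1309.5, 635 and 1632 CPM (log2 difference 2.55, SE 0.37, adjusted p = 0.000436) and tdT- cells from 177, 219.7 and 226 to 1134, 1386 and 1038 CPM (log2 difference 2.59, SE 0.371, adjusted p = 0.000108). The lowest of the reporter LPS values belongs to the tdT+ library of mouse 5 that carried microglia markers. WT sdCAMs went from 234, 227 and 259.6 to 1042, 804 and 831 CPM (log2 difference 2.08, SE 0.524, adjusted p = 0.0406), with no overlap between the groups, but this call was lost with totals only (log2 difference 0.58, adjusted p = 0.565), without a filter on low counts (log2 difference 2.07, adjusted p = 0.113) and at adjusted p 0.0783 to 0.16 without any 1 of the 6 libraries.

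In MG the Itgam values after LPS were 737, 472 and 560.2 CPM in WT and 565, 563 and 688 CPM in Ccr2-/- mice, against 441, 464 and 469.7 and 532, 497 and 523 CPM after PBS. The differences were small (log2 difference 0.39, 95% interval 0.02 to 0.76, adjusted p = 0.102 in WT; log2 difference 0.26, 95% interval -0.07 to 0.59, adjusted p = 0.212 in Ccr2-/- mice). The WT value passed with totals only (log2 difference 0.48, adjusted p = 0.0447) and at adjusted p = 0.0146 without the library of MG LPS mouse 4.

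Neutrophils also express Itgam and Itgal, and the summed CPM of 5 neutrophil markers (S100a8, S100a9, Retnlg, Ly6g and Cxcr2) moved with LPS in sdCAMs. The sums were 1.15 to 2.45 CPM after PBS and 61.2 to 95.7 CPM after LPS in Ccr2-/- sdCAMs. In WT sdCAMs they were 0 to 92.1 CPM after PBS and 341 to 3084 CPM after LPS. In tdT+ cells they were 0 to 1.39 CPM after PBS and 11.1 to 46 CPM after LPS, whereas in tdT- cells they were 0 CPM in all 3 libraries after PBS and 553 to 2156 CPM after LPS. With the 2 columns exchanged, the LPS sums ran from 11.1 to 2156 CPM in tdT+ and from 28.6 to 1014 CPM in tdT- cells. Ly6g, the most specific of the 5, and Retnlg were at or under 3 reads in every library of these 4 LPS sets, and so were Cxcr2 in WT and tdT- cells and S100a9 in tdT+ cells. The WT and tdT- sums rest on S100a8 and S100a9. The part of such cells in these differences was not tested.

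Itgb2, the beta partner of both, moved less. It rose in Ccr2-/- sdCAMs from 330.1, 359 and 401 to 521, 555 and 629.8 CPM (log2 difference 0.64, SE 0.147, adjusted p = 0.00552) and in Ccr2-/- MG from 720.5, 733 and 664 to 855, 938 and 866 CPM (log2 difference 0.37, SE 0.125, adjusted p = 0.0351). The MG call was lost without a filter (log2 difference 0.36, adjusted p = 0.0678) and at adjusted p 0.0674 to 0.135 without any 1 of the 6 libraries. It did not pass in the other 5 sets, where log2 differences ran from -0.79 in tdT- to 0.65 in tdT+ sdCAMs.

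Icam1, which holds the kappaB-type letters shown above, rose in Ccr2-/- mice. In their sdCAMs it went from 78.1, 55.7 and 56 to 258, 269 and 247 CPM, 4.08-fold (log2 difference 2.03, SE 0.196, adjusted p = 8.17e-06), and in their MG from 182, 182 and 206 to 456, 296 and 315 CPM (log2 difference 0.94, SE 0.179, adjusted p = 0.00101). WT MG went from 139, 138 and 152 to 290.4, 117 and 209 CPM and did not pass (log2 difference 0.55, 95% interval -0.08 to 1.18, adjusted p = 0.173; adjusted p = 0.00884 without the library of MG LPS mouse 4). WT sdCAMs (log2 difference 0.31, 95% interval -0.98 to 1.60, adjusted p = 0.786) and the reporter sdCAMs (0.31, adjusted p = 0.725 in tdT+; -0.12, adjusted p = 0.872 in tdT-) did not pass either. Whether WT and Ccr2-/- mice differ in this response was not tested.

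Itga6 and Itgb5 went down, and so did Itga4 in Ccr2-/- and WT sdCAMs. Itga4 fell in Ccr2-/- sdCAMs from 122, 122 and 109.9 to 39.5, 27.2 and 26.6 CPM (log2 difference -1.92, SE 0.451, adjusted p = 0.00652) and in WT sdCAMs from 115, 76.9 and 104 to 18.9, 4.43 and 6.99 CPM (log2 difference -3.05, SE 0.585, adjusted p = 0.016; adjusted p 0.0504 to 0.0789 without either sdCAM LPS mouse 6 or sdCAM PBS mouse 9). In repopulated reporter sdCAMs it did not pass, at 93.5, 13.2 and 108 CPM in tdT+ cells after LPS (log2 difference 0.20, 95% interval -1.02 to 1.41, adjusted p = 0.862) and 65.8, 26.4 and 70.2 CPM in tdT- cells (log2 difference -0.01, 95% interval -1.23 to 1.2, adjusted p = 0.992). The low tdT+ value is that of mouse 5. Without that library the tdT+ value was log2 difference 0.68, adjusted p = 0.312. No test across the reporter and the other series was made, since batch and genotype differ together. In MG, Itga4 rested on few reads and did not pass in WT (log2 difference 0.17, adjusted p = 0.893) or Ccr2-/- mice (log2 difference 2.17, adjusted p = 0.237). The Ccr2-/- MG difference passed at adjusted p = 0.0378 without the library of MG PBS mouse 1m.

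Itga6, a laminin-binding subunit, fell in Ccr2-/- MG from 446, 520.1 and 506 to 170.4, 256 and 252 CPM (log2 difference -1.08, SE 0.306, adjusted p = 0.0136; adjusted p = 0.0716 without the library of MG LPS mouse V1m) and in Ccr2-/- sdCAMs from 225, 246 and 246 to 83.4, 71.4 and 71.2 CPM (log2 difference -1.66, SE 0.245, adjusted p = 0.000246). WT sdCAMs went from 220.0, 214 and 302 to 29.3, 39.8 and 51.6 CPM (log2 difference -2.40, SE 0.488, adjusted p = 0.0192; adjusted p 0.0541 to 0.0751 without any 1 of sdCAM LPS mouse 1, sdCAM LPS mouse 4, sdCAM LPS mouse 6, sdCAM PBS mouse 14 or sdCAM PBS mouse 15). In tdT- cells it fell from 152, 201 and 192 to 98, 49.2 and 38.1 CPM (log2 difference -1.48, SE 0.345, adjusted p = 0.00483), a call lost with the 2 columns exchanged (log2 difference -1.22, adjusted p = 0.0935). WT MG (log2 difference -0.69, 95% interval -1.38 to 0.00, adjusted p = 0.119) passed at adjusted p = 0.00919 without the library of MG LPS mouse 4. In tdT+ cells it did not pass (log2 difference -0.25, 95% interval -0.97 to 0.47, adjusted p = 0.683).

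Itgb5 was lower after LPS in all 7 sets, with no overlap between PBS and LPS libraries in any, and passed in 4. Ccr2-/- sdCAMs went from 684, 672 and 797 to 185, 225 and 248 CPM (log2 difference -1.71, SE 0.15, adjusted p = 3.56e-06) and tdT- cells from 644, 776 and 795 to 118, 73.2 and 113 CPM (log2 difference -2.79, SE 0.459, adjusted p = 0.000369). The MG differences were smaller, from 2427, 2905 and 2431 to 1487, 1722 and 1579.9 CPM in Ccr2-/- mice (log2 difference -0.66, SE 0.182, adjusted p = 0.0118; adjusted p 0.0568 to 0.0594 without either MG PBS mouse 3m or MG LPS mouse V1m). In WT MG they went from 2469, 2211 and 2317 to 784, 2044 and 1260.2 CPM (log2 difference -0.75, SE 0.255, adjusted p = 0.0425), lost with totals only (log2 difference -0.65, adjusted p = 0.0749), with only the compared libraries in the fit (log2 difference -0.75, adjusted p = 0.0816) and at adjusted p 0.0526 to 0.127 without any 1 of MG LPS mouse 1, MG LPS mouse 6, MG PBS mouse 9, MG PBS mouse 14 or MG PBS mouse 15. The 3 sets that did not pass were WT sdCAMs (-1.5, adjusted p = 0.0858, and 0.0472 with the immediate early gene mark as a covariate), tdT+ cells (-1.22, adjusted p = 0.0752; adjusted p = 0.000669 without the library of tdT+ LPS mouse 5) and reporter MG (-1.42, adjusted p = 0.304). Itgb5 also passed in WT sdCAMs with DESeq2 and with totals only, and in tdT+ cells with DESeq2 and without a filter.

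Itgb1 passed in 1 set only, tdT- sdCAMs (431, 664 and 672 to 167, 166 and 303 CPM; log2 difference -1.40, SE 0.327, adjusted p = 0.00504), and that call was lost with the 2 columns exchanged (log2 difference -0.98, adjusted p = 0.163). In Ccr2-/- mice the Itgb1 intervals were narrow, -0.44 to 0.16 in MG and -0.49 to 0.13 in sdCAMs. Pecam1 fell in Ccr2-/- MG from 53.3, 57.3 and 38.3 to 18.4, 25.2 and 20.1 CPM (log2 difference -1.19, SE 0.274, adjusted p = 0.0039) and did not pass in WT MG (log2 difference -0.22, 95% interval -0.80 to 0.36, adjusted p = 0.577). In the Ccr2-/- MG, summed endothelial markers were 5.48 to 20.3 CPM after PBS and 3.46 to 4.74 CPM after LPS. The platelet sum, carried by Gp9 after PBS, was 31.1 to 42.3 CPM after PBS and 8.14 to 12.1 CPM after LPS. Their part was not tested.

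**Figure D3:**
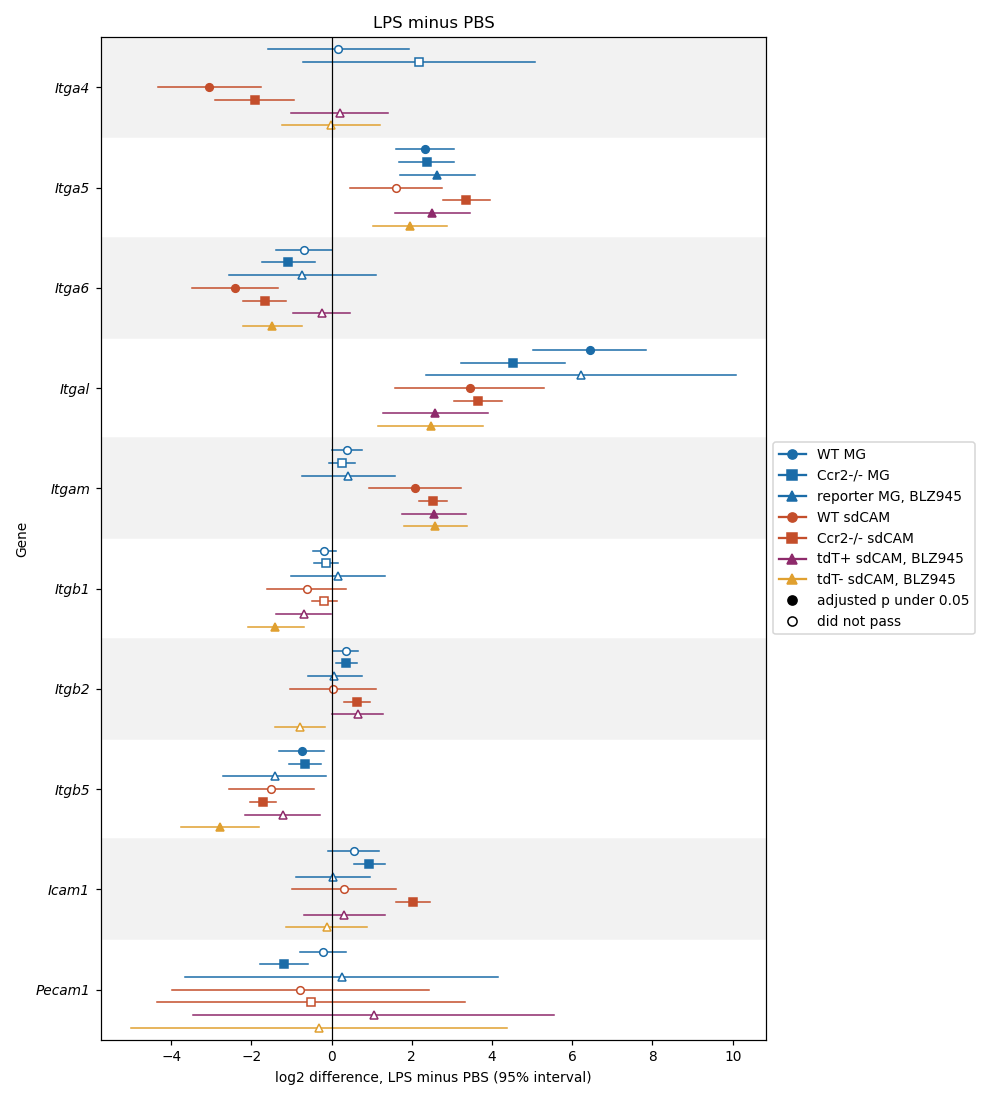
log2 difference of LPS minus PBS for the 10 members in 7 sets of cells, with 95% intervals and filled points for an adjusted p under 0.05. Itgal and Itga5 lie to the right of 0 and Itgb5 to the left in all 7 sets (Itga5 in WT sdCAMs at -0.02 with totals only), and Itgam lies at 2.08 to 2.59 in the 4 sdCAM sets and at 0.26 to 0.41 in the 3 MG sets.

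By count, 8 of 10 members passed in Ccr2-/- sdCAMs (5 higher, 3 lower), where 28.8% of all genes tested passed, and 7 of 10 in Ccr2-/- MG (4 and 3), against 34.9%. In WT mice 4 of 10 passed in sdCAMs (2 and 2), against 6.32%, and 3 of 10 in MG (2 and 1), against 30.9%. In the reporter 6 of 10 passed in tdT- cells (3 and 3), against 27.1%, 3 of 10 in tdT+ cells (all higher), against 13.6%, and 1 of the 9 tested in MG (Itga4 was too low there), against 1.08%. With the 2 columns exchanged, Itga5 and Itgam passed in tdT+ cells (Itgam log2 difference 2.35, adjusted p = 0.00584) and Itga5, Itgal, Itgam and Itgb5 in tdT- cells (Itgam log2 difference 2.76, adjusted p = 0.00183). Without the tdT+ library of mouse 5 the tdT+ count was 4. The WT MG count is close to the share over all genes. Median absolute log2 differences of the members and of all genes were 1.82 and 0.69 in Ccr2-/- sdCAMs, and 0.47 and 0.48 in WT MG.

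Whether the LPS response itself differed between the populations was tested as an interaction. In Ccr2-/- mice 4 of 10 members passed, against 8.14% of all genes tested. Itgam rose more in sdCAMs than in MG (log2 difference 2.30, SE 0.223, adjusted p = 2.09e-06), and so did Icam1 (log2 difference 1.12, SE 0.273, adjusted p = 0.0135). Itgb5 fell more in sdCAMs (log2 difference -1.02, SE 0.242, adjusted p = 0.0117). Itga4 fell relative to MG (log2 difference -4.07, SE 1.11, adjusted p = 0.0283), but its MG reads were few and the call was lost at adjusted p 0.051 to 0.0814 without any 1 of MG PBS mouse 3m, MG PBS mouse 5f, MG LPS mouse V1m, sdCAM LPS mouse V2m, MG LPS mouse V2m, sdCAM LPS mouse V4f or MG LPS mouse V4f. Itgb1 had an interaction of 0.00 (95% interval -0.42 to 0.42). In WT mice edgeR passed 0 of 10, against 1.32% of all genes, and DESeq2 passed 2. At an unadjusted p under 0.05 edgeR had 4 members, against 2344 of all 13136 genes tested. The WT value of Itgam was log2 difference 1.60, 95% interval 0.71 to 2.50, adjusted p = 0.0709, and that of Itga4 log2 difference -3.27, 95% interval -5.32 to -1.23, adjusted p = 0.0989 (adjusted p = 0.0489 without the library of sdCAM LPS mouse 1).

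The genes around the integrins were counted from 4 lists. Beside the LPS counts of these lists, 34.9% of all genes tested passed in Ccr2-/- MG and 28.8% in Ccr2-/- sdCAMs. For the other integrin subunits in Ccr2-/- MG after LPS, 1 of 6 tested genes passed as higher and 3 as lower, with a median log2 difference of -0.76, where the median of all genes was 0.00. Itga9, which binds tenascin and VCAM-1, fell in MG of Ccr2-/- (-1.64, adjusted p = 0.000587) and WT mice (-1.74, adjusted p = 0.000268) and rose in Ccr2-/- sdCAMs from 102 ± 25 to 323 ± 44.8 CPM (1.66, adjusted p = 0.00168). The interaction for Itga9 passed in Ccr2-/- mice (3.33, adjusted p = 0.000143), and in WT mice no gene of this list passed it. Itgav, the alpha-v partner of Itgb5, fell with it in Ccr2-/- MG (-0.84, adjusted p = 0.0155) and was lower in sdCAMs than in MG of untreated Ccr2-/- mice (-1.94, adjusted p = 4.68e-05). Itgb3, another partner of alpha-v, fell in Ccr2-/- MG (-0.68, adjusted p = 0.00626) and was lower in resting sdCAMs than in resting MG of Ccr2-/- mice (-3.72, adjusted p = 0.00406).

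Among the proteins that link integrins to actin, 3 of 18 tested genes passed as higher and 8 as lower, with a median log2 difference of -0.18 in Ccr2-/- MG, and 5 of 21 tested genes passed as higher and 3 as lower, with a median log2 difference of -0.04 in Ccr2-/- sdCAMs, against medians over all genes of 0.00 and -0.05. Tln2, the second talin gene, fell in 6 sets, from 191 ± 21.8 to 3.59 ± 2.80 CPM in Ccr2-/- sdCAMs (-5.71, adjusted p = 2.03e-05) and from 127 ± 4.26 to 18 ± 15.5 CPM in WT MG (-2.80, adjusted p = 0.00168). Tln1, the main talin of leukocytes, rose in WT MG (0.54, adjusted p = 0.0146) and in tdT- cells (1.41, adjusted p = 0.00291). Zyx and Tns1, components of focal adhesions, rose in both Ccr2-/- populations (Zyx 1.09, adjusted p = 0.000772 in MG and 0.86, adjusted p = 0.00474 in sdCAMs; Tns1 1.37, adjusted p = 4.36e-05 and 4.39, adjusted p = 0.000618). Fermt3, the kindlin of blood cells, rose in Ccr2-/- sdCAMs (0.78, adjusted p = 0.00154). Apbb1ip, which recruits talin to integrins, fell in MG of Ccr2-/- mice (-0.86, adjusted p = 0.000484) and rose in tdT+ sdCAMs (1.81, adjusted p = 0.00905).

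For counter-receptors and other leukocyte adhesion molecules, 2 of 12 tested genes passed as higher and 5 as lower, with a median log2 difference of -0.09 in Ccr2-/- MG and 6 of 13 tested genes passed as higher and 3 as lower, with a median log2 difference of 0.70 in Ccr2-/- sdCAMs. Over all genes the shares passing were 34.9% and 28.8%, and the medians 0.0 and -0.05. Vcam1, the counter-receptor of the Itga4 and Itgb1 pair, was high in resting sdCAMs and low in resting MG (694 ± 81.4 against 17.3 ± 1.06 CPM in Ccr2-/- mice, 5.33, adjusted p = 1.24e-11). It rose in MG after LPS, from 17.3 ± 1.06 to 175 ± 56.9 CPM in Ccr2-/- (3.37, adjusted p = 3.01e-07) and from 11 ± 6.57 to 90.2 ± 65.3 CPM in WT mice (3.07, adjusted p = 0.00146). Cd44, the hyaluronan receptor, rose in MG and sdCAMs of Ccr2-/- mice (5.08, adjusted p = 1.61e-05; 5.17, adjusted p = 7.01e-05). Selplg, the P-selectin ligand, and the junctional molecules F11r and Jam2 were higher in resting MG than in sdCAMs of Ccr2-/- mice (Selplg -3.76, adjusted p = 3.3e-10; F11r -3.26, adjusted p = 2.2e-10; Jam2 -4.64, adjusted p = 1.01e-05) and fell in MG after LPS (Selplg -1.23, adjusted p = 0.000174 in Ccr2-/- MG; F11r -0.96, adjusted p = 0.00505 and Jam2 -2.92, adjusted p = 0.00101 in WT MG).

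Of the 14 matrix ligands, in Ccr2-/- MG 2 of 5 tested genes passed as higher and 1 as lower, with a median log2 difference of 0.69, and in Ccr2-/- sdCAMs 3 of 8 tested genes passed as higher and 1 as lower, with a median log2 difference of 2.86. Over all genes the shares passing were 34.9% and 28.8%, and the medians 0.0 and -0.05. Spp1 (osteopontin) went from 4.01 ± 0.769 to 676 ± 119 CPM in Ccr2-/- MG (7.44, adjusted p = 1.54e-08) and from 24.2 ± 24.7 to 256 ± 75.1 CPM in their sdCAMs (3.40, adjusted p = 0.00153). Fn1 (fibronectin), the ligand of Itga5, stood at 0.101 ± 0.176 CPM in resting Ccr2-/- and 0.0609 ± 0.106 CPM in resting WT MG and reached 41.2 ± 5.12 CPM in Ccr2-/- and 61.8 ± 12.1 CPM in WT MG after LPS (adjusted p = 2.06e-07 and 3.85e-07). Thbs1 (thrombospondin) rose in Ccr2-/- sdCAMs (4.70, adjusted p = 0.000279).

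The BLZ945 comparison asked whether repopulated cells differed from vehicle-treated ones after LPS, and it uses the same CTL libraries as the LPS comparison. Pecam1 was the one member that passed. In WT MG it was 5.02, 7.34 and 4.78 CPM after BLZ945 against 35.3, 16.8 and 24.7 CPM after CTL, with no overlap (log2 difference -2.15, SE 0.287, adjusted p = 0.0385). There 1 of 10 members passed, and 0.0763% of all genes tested. The call was lost with only the compared libraries in the fit (log2 difference -2.16, adjusted p = 0.162) and at adjusted p 0.141 to 0.225 without any 1 of MG CTL mouse 6, MG BLZ945 mouse 8, MG BLZ945 mouse 11 or MG BLZ945 mouse 12. Ccr2-/- MG showed the same order, 10.3, 4.38 and 6.67 CPM after BLZ945 against 18.4, 25.2 and 20.1 CPM after CTL, without overlap, but did not pass (log2 difference -1.60, 95% interval -2.22 to -0.97, adjusted p = 0.161; adjusted p = 0.0377 without the library of MG BLZ945 mouse B2m). There edgeR passed 0 of 10 members, against 0.0173% of all genes, and DESeq2 passed 1. At an unadjusted p under 0.05 edgeR had 2 members, against 769 of all 11558 genes tested.

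In a fit of both genotypes, added after the data were seen, the mean of both BLZ945 effects on Pecam1 in MG passed (log2 difference -1.86, SE 0.214, adjusted p = 0.000134), and it passed without each of the 12 libraries in turn. This was 1 of 10 members, against 0.314% of all genes. The difference between the genotypes did not pass for any of the 10 members in edgeR, where 0.0% of all genes passed, and 0 passed with DESeq2 (Pecam1 log2 difference 0.57, 95% interval -0.31 to 1.44, adjusted p = 1). None of the members had an unadjusted p under 0.05, against 494 of all 12423 genes tested. Endothelial markers summed to 1.68 to 5.61 CPM after BLZ945 and 2.33 to 7.03 CPM after CTL in WT MG, and to 0.836 to 4.66 and 3.46 to 4.74 CPM in Ccr2-/- MG. Platelet markers summed to 4.17 to 7.82 and 4.84 to 7.24 CPM in WT and to 10.5 to 20.9 and 8.14 to 12.1 CPM in Ccr2-/- MG. In all 4 sets Cldn5, Ppbp and Gp1bb were at or under 3 reads in every library. The part of such cells in the Pecam1 difference was not tested.

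Itgal was higher after BLZ945 in MG of both genotypes by level, but did not pass in edgeR with the filter on low counts. WT MG held 32.5, 56.9 and 36.7 CPM against 22.2, 7.39 and 15.7 CPM after CTL, without overlap (log2 difference 1.48, 95% interval 0.63 to 2.33, adjusted p = 0.382), and Ccr2-/- MG held 47.9, 19.4 and 48 against 20.6, 12.9 and 17.4 CPM, with overlap (log2 difference 1.17, 95% interval 0.20 to 2.15, adjusted p = 0.691). The mean over both was log2 difference 1.33, 95% interval 0.63 to 2.04, adjusted p = 0.121. The other 8 members ran from -0.03 (Icam1) to 1.29 (Itga4) in WT and from -0.40 (Itga4) to 0.37 (Itga5) in Ccr2-/- MG, on the log2 scale. For Itgal, DESeq2 passed the WT difference (log2 difference 1.48, adjusted p = 0.0333). Without the filter, edgeR passed Itgal in WT MG, in Ccr2-/- MG and for the mean over both. Fn1 also was higher in repopulated WT MG, at 209 ± 70.7 against 61.8 ± 12.1 CPM (1.76, adjusted p = 0.0479), and over both genotypes (1.42, adjusted p = 0.00431). Fn1 was 1 of 5 matrix ligands tested in WT MG, and no other gene of the 4 lists passed in any of the 4 BLZ945 comparisons.

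**Figure D4:**
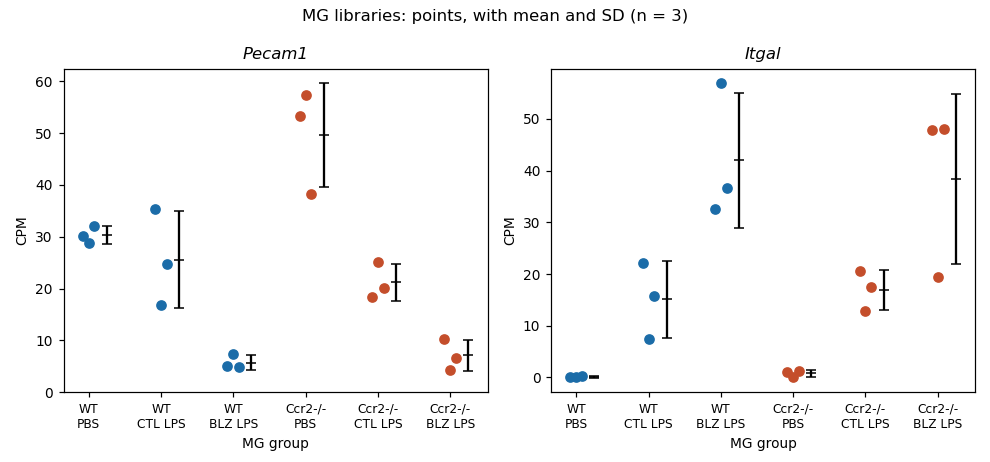
Pecam1 and Itgal in MG of WT and Ccr2-/- mice in CPM, with each point 1 library and the mean and SD (n = 3) beside it. Pecam1 after BLZ945 and LPS (4.38 to 10.3 CPM) lies below all CTL libraries (16.8 to 35.3 CPM) in both genotypes, and Itgal is higher after BLZ945 with overlap in Ccr2-/- mice.

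In sdCAMs no member passed with BLZ945 in edgeR, where 0.0% of all genes passed in WT and 0.0% in Ccr2-/- mice. At an unadjusted p under 0.05 there were 2 members in WT sdCAMs, against 758 of all 10504 genes tested. In Ccr2-/- sdCAMs there was 1, against 998 of 11941 genes. DESeq2 passed 0 in each. The largest WT difference was that of Itga6, with 202, 243 and 89.4 CPM after BLZ945 against 29.3, 39.8 and 51.6 CPM after CTL (log2 difference 2.01, 95% interval 0.95 to 3.06, adjusted p = 0.689; adjusted p = 0.012 without the library of sdCAM BLZ945 mouse 12). Itga4 was 44, 44.5 and 21.3 against 18.9, 4.43 and 6.99 CPM (log2 difference 1.69, 95% interval 0.46 to 2.92, adjusted p = 0.689). In Ccr2-/- sdCAMs Itga6 was 72.8, 118 and 55.3 against 83.4, 71.4 and 71.2 CPM (log2 difference 0.12, 95% interval -0.41 to 0.64, adjusted p = 0.94) and Itga4 6.30, 32.7 and 30.4 against 39.5, 27.2 and 26.6 CPM (log2 difference -0.43, 95% interval -1.40 to 0.53, adjusted p = 0.853). The other 8 members ran from -1.05 (Pecam1) to 1.24 (Itgal) in WT and from -0.32 (Itgal) to 0.38 (Itgb5) in Ccr2-/- sdCAMs. In the joint fit of sdCAMs edgeR passed 0 of 10 members for the mean (0.0% of all genes, 2 members at an unadjusted p under 0.05, 1 with DESeq2) and 0 of 10 for the genotype difference (0.0%, 2 members, 0 with DESeq2). Neutrophil markers in WT sdCAMs summed to 23.8 to 919 CPM after BLZ945 and 341 to 3084 CPM after CTL, carried by S100a8 and S100a9, and all 3 CTL libraries but only 1 of the 3 BLZ945 libraries carry the immediate early gene mark. The part of either was not tested.

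The tdT comparison asked whether sdCAMs that descend from Ccr2-expressing cells differ from the rest in the same mouse. After PBS edgeR passed 0 of 10 members, against 0.0236% of all genes tested, and DESeq2 passed 0. At an unadjusted p under 0.05 edgeR had 0 members, against 566 of all 12708 genes tested. The intervals were wide. Itga4 was 74.1, 68.4 and 49.8 CPM in tdT+ and 48.9, 65.4 and 58 CPM in tdT- cells (log2 difference 0.16, 95% interval -1.05 to 1.37, adjusted p = 1). Itgal was 34.8, 7.20 and 62.7 and 30.2, 22 and 21.7 CPM (log2 difference 0.50, 95% interval -0.75 to 1.75, adjusted p = 1). Itgam was 177, 274 and 177 and 177, 219.7 and 226 CPM (log2 difference 0.01, 95% interval -0.73 to 0.76, adjusted p = 1). The log2 differences of the other 7 ran from -0.39 (Itgb2) to 1.57 (Pecam1).

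After LPS 3 of 10 members passed as higher in tdT+ cells, against 10.8% of all genes. They were Itgb5 at 208, 668 and 160.5 against 118, 73.2 and 113 CPM (log2 difference 1.72, SE 0.443, adjusted p = 0.02), Itgb2 at 376, 661 and 519 against 182, 273 and 275 CPM (log2 difference 1.05, SE 0.3, adjusted p = 0.0345) and Itga6 at 147, 155 and 138 against 98, 49.2 and 38.1 CPM (log2 difference 1.21, SE 0.344, adjusted p = 0.0337). With the 2 columns exchanged 0 of 10 passed (Itgb5 log2 difference 1.49, adjusted p = 0.763; Itgb2 log2 difference 0.17, adjusted p = 0.995; Itga6 log2 difference 0.82, adjusted p = 0.81). Without the tdT+ library of mouse 5, which carried microglia markers, 0 passed (Itgb5 log2 difference 0.87, adjusted p = 0.0944; Itgb2 log2 difference 0.89, adjusted p = 0.083; Itga6 log2 difference 1.22, adjusted p = 0.0594). With the mouse as a replicate block the value of Itgb5 was log2 difference 1.43, adjusted p = 0.0676. Single libraries decided each call. Itgb5 had adjusted p 0.0564 to 0.0944 without either tdT+ LPS mouse 5 or tdT- LPS mouse 5. Itgb2 had adjusted p 0.073 to 0.0958 without any 1 of tdT- LPS mouse 1, tdT+ LPS mouse 5 or tdT+ LPS mouse 7. Itga6 had adjusted p 0.0594 to 0.0906 without any 1 of tdT+ LPS mouse 1, tdT+ LPS mouse 5, tdT- LPS mouse 5, tdT+ LPS mouse 7 or tdT- LPS mouse 7. Itgb1 passed at adjusted p = 0.0355 without the library of tdT- LPS mouse 7. The other 7 members did not pass, with log2 differences of -0.02 (Itgam) to 0.94 (Icam1) for all but Pecam1. Pecam1 had log2 difference 2.94, 95% interval -2.03 to 7.92, adjusted p = 0.483. Its levels were 8.32, 2.96 and 0.914 CPM in tdT+ cells and 0.31, 0 and 1.27 CPM in tdT- cells, where it rests on 1, 0 and 3 reads. With the columns as named, neutrophil markers summed to 11.1 to 46 CPM in tdT+ and 553 to 2156 CPM in tdT- cells. With the 2 columns exchanged, the sums ran from 11.1 to 2156 CPM in tdT+ and from 28.6 to 1014 CPM in tdT- cells. The tdT- sum as named was carried by S100a8 and S100a9, and its part was not tested.

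**Figure D5:**
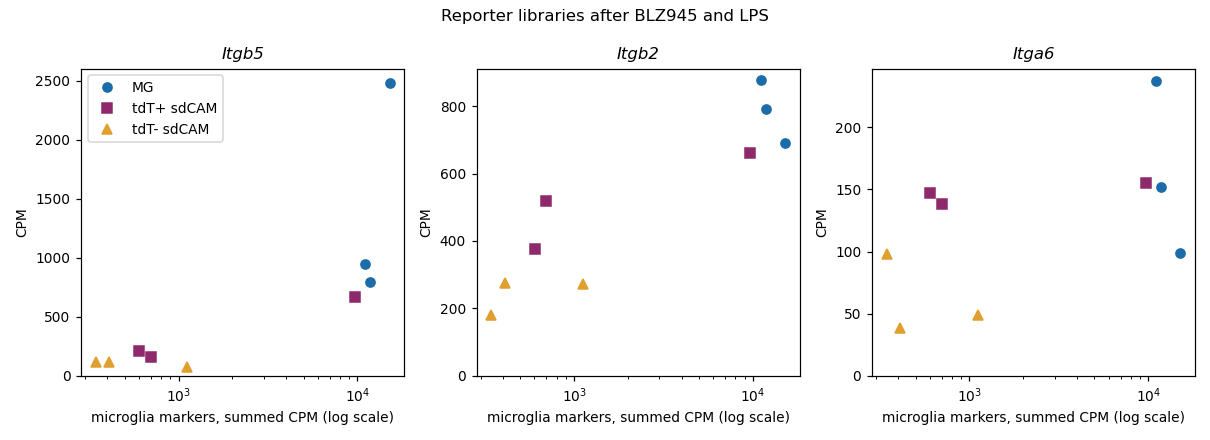
Itgb5, Itgb2 and Itga6 in CPM against the summed CPM of 6 microglia markers (log axis) in the 9 reporter libraries after BLZ945 and LPS, each point 1 library. One tdT+ sdCAM library lies beside the MG libraries on the marker axis, and it holds 668 CPM of Itgb5 against 161 and 208 CPM in the other tdT+ libraries.

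Across the 18 group means, the genes whose levels followed a member most closely were named by Pearson's r of log2(CPM + 1) among the 8760 genes averaging 10 CPM or more. For Itga4 these were Ms4a14 (0.974), Iqgap2 (0.969) and Itsn1 (0.963), for Itga5 Cd274 (0.962), Slc39a14 (0.961) and Cpd (0.958), and for Itgal C3 (0.968), Ms4a4c (0.963) and Ifi209 (0.962). Itgb5 was followed by Ctc1 (0.984), Tpbgl (0.977) and F11r (0.971), Itga6 by Fam117b (0.963) and Icam1 by Itgb2 (0.939). For Itgam (Atf4, 0.918), Itgb1 (Mtpn, 0.953), Itgb2 (Blzf1, 0.949) and Pecam1 (Tom1l1, 0.896) the first name is given. The points share populations, mice and library preparation, and they mix the reporter batch with the other mice, so these values are a description.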

How the data were processed

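Libraries were prepared from sorted cells with the SMARTer v4 and Nextera XT kits and read as single ends on a HiSeq 1000. The authors demultiplexed with bcl2fastq 2.20, aligned with STAR 2.7.11a and counted with featureCounts 2.0.8, per the labels and methods, and deposited 3 tables of whole-number counts per gene and library. Sources differ on the genome build (mm10 or GRCm39), no UMIs were used, and the strand setting is not given in the sources used here, so reads of overlapping genes cannot be told apart. Each library is 1 mouse, and MG and sdCAMs came from the same mice.

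Here low genes were removed with filterByExpr, libraries were scaled by TMM, and differences were tested two-sided with edgeR 4.0.16 (R 4.3.3, limma 3.58.1), as quasi-likelihood fits of 1 population and genotype, or of both populations of 1 genotype for sdCAM minus MG and the interaction. Adjusted p-values are Benjamini-Hochberg over all genes tested. DESeq2 1.42.0 was an alternative. Some of the fits were tested on simulated data. For LPS in WT sdCAMs, that test recovered none of the changes built in. A member that did not pass there is therefore not shown to be unchanged. Same-numbered libraries are paired by mouse, and the correlation of their deviations from group means ran from -0.129 to 0.328.

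The members, marker lists and 4 gene lists were chosen with earlier results of these data known. All members are named. Of each list, counts are given, and up to 3 higher and 3 lower genes per comparison with the smallest p and a mean of at least 10 CPM could be named. Genes most like a member are the 3 highest correlations over group means of log2(CPM + 1). One gene of the lists, and the marker sum that holds it, is not reported here.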

Additional observations from a re-analysis of the deposited data

Results flagged for a closer look

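In Ccr2-/- mice the LPS response of 4 members differed between sdCAMs and MG, by the interaction test given above. The difference, sdCAM response minus MG response on the log2 scale, was 2.30 for Itgam, 1.12 for Icam1, -1.02 for Itgb5 and -4.07 for Itga4. Leaving out 1 library at a time lost the Itga4 call in 7 of 12 fits and the calls of Itgam, Icam1 and Itgb5 in 0. The groups of 3 libraries were too small for a separate rule that names a single library as outlying.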

How the results depend on the processing

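Counts are of members passing, of 10. The share of all genes passing under a setting is mostly not given here, so these counts are not a result about the members. DESeq2 passed 2 in reporter MG with LPS, 2 in WT MG and 1 in Ccr2-/- MG with BLZ945, 1 for the mean BLZ945 effect in sdCAMs and 2 in the WT interaction. It also passed Itga5 and Itgb5 in WT sdCAMs and Itgb5 in tdT+ cells with LPS. For sdCAM minus MG it also passed Itgam and Itgb2 in untreated WT mice and Itgal and Itgam in WT mice after LPS. In the reporter it also passed Itgb1 and Icam1 for tdT+ and Itgb2 for tdT- cells. DESeq2 lost no member call. For size factors, totals only and no filter, only some of the changed counts are listed. With size factors 1 passed in tdT+ against tdT- after LPS and 1 in the WT interaction. Scaling by totals only shifted the median log2 difference of all genes by up to 1.797 (sdCAM minus MG, WT after LPS), 1.475 (LPS in WT sdCAMs), 1.34 (BLZ945 in WT sdCAMs) and 1.027 (tdT+ minus tdT- after LPS), and calls there are relative to that shift. It passed 2 in WT sdCAMs with BLZ945, 2 in the genotype difference of BLZ945 in sdCAMs, 8 in tdT+ against tdT- after LPS and 6 in the WT interaction, and it turned Itgam in tdT+ against tdT- after LPS to 1.00 (log2), from -0.02. With no filter 5 passed in WT MG and LPS, 2 in WT MG and 2 in Ccr2-/- MG with BLZ945, 2 for the mean BLZ945 effect in MG and 2 in the WT interaction. A fold limit of 1 on the log2 scale left 4 in Ccr2-/- MG with LPS. With only the libraries compared, 0 passed in WT MG with BLZ945 and 0 in tdT+ against tdT- after LPS. With the 2 columns exchanged 0 passed there, and 0 also with the mouse as a replicate block. The replicate block alone left 2 there, 7 in WT sdCAM minus MG after LPS and 5 for tdT+ sdCAM minus MG, and changed no call of a member other than those named in the report. The block moved the calls over all genes from 2291 to 1380 for untreated WT sdCAM minus MG, from 174 to 91 in the WT interaction and from 3 to 10 for tdT+ minus tdT- after PBS. Leaving out 1 library at a time gave, for LPS, 2 to 6 in WT MG, 0 to 2 in WT sdCAMs, 4 to 7 in Ccr2-/- MG, 8 in Ccr2-/- sdCAMs, 0 to 2 in reporter MG, 2 to 4 in tdT+ and 6 to 7 in tdT- cells. For BLZ945 it gave 0 to 1 in WT MG, WT sdCAMs and Ccr2-/- MG, 0 in Ccr2-/- sdCAMs, and 1 for the mean and 0 for the genotype difference in MG. For tdT+ against tdT- it gave 0 after PBS and 0 to 3 after LPS. For sdCAM minus MG it gave 3 to 6 (WT untreated), 5 to 8 (WT after LPS), 6 to 8 (Ccr2-/- untreated), 6 to 7 (Ccr2-/- after LPS), 3 (tdT+) and 3 to 4 (tdT-), and for the interaction 0 to 1 in WT and 3 to 4 in Ccr2-/- mice. Without any 1 library of the LPS comparison in WT sdCAMs, at most 2 members passed in place of 4. With the immediate early gene mark as a covariate 6 passed there and 1142 genes in all, against 664. The joint fit of both genotypes and the exchange with the block were chosen after seeing the data, and leaving out libraries was not run for the joint sdCAM fit. Where a setting changed a count, the cause was not tested. Totals were lowest in WT and reporter sdCAMs, which limits low members such as Itgal, Itga4 and Pecam1 there.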
